A study of Mus musculus with 27 samples.

Results

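Macrophages sorted from the dura mater, the outer membrane around the brain, were compared between mice given T cells without T-bet (label Tbet ko) and mice given T cells without interferon-gamma (IFN-gamma, label IFNg ko). The comparison took the 2 Tbet ko libraries and the 2 IFNg ko libraries, chosen by the donor T cells named in the labels, out of 27 libraries in the series. All 4 hosts were female Rag1 ko B6 mice aged 16 to 19 weeks, sampled 6.5 weeks after T-cell transfer. Other libraries serve as levels only: 2 from hosts of IL17A/F ko T cells, 5 from hosts of total T cells and 6 from Rag1 ko mice without T cells. Rag1 ko hosts lack their own T and B lymphocytes, so all T cells present were donor cells, while other host cells, NK cells included, remain. The knockouts are in the transferred T cells and not in the macrophages that were sequenced. Libraries are named by group, sex and a running number (Tbet ko F1, Tbet ko F2, IFNg ko F1, IFNg ko F2). Nothing in the labels says that each library is a separate animal, and the column names do not settle whether the Tbet ko libraries come from 1 animal or whether some libraries are pools. P-values and errors therefore measure only the spread between libraries, which may be technical.

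T-bet, encoded by Tbx21, is the transcription factor that directs T helper 1 differentiation and drives the IFN-gamma gene, but T cells can make some IFN-gamma without it, mainly through the related factor Eomes in CD8 T cells. IFN-gamma binds IFNGR1 and IFNGR2 on macrophages, and its signal reaches gamma-activated sites (GAS) in promoters. Its targets include guanylate-binding proteins, immunity-related GTPases, the chemokines CXCL9 and CXCL10, the immunoproteasome, the MHC class I genes and, through the coactivator CIITA, the MHC class II genes. The question posed by this pair of groups is what loss of the factor leaves, or takes, beyond loss of the cytokine.

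The library IFNg ko F1 stood apart from the other 3. It held 6902602 counts, against 9932221 in Tbet ko F1, 10048893 in Tbet ko F2 and 10723879 in IFNg ko F2. Mitochondrial genes took 5.05% of its counts, and from 1% to 3.7% of those in the 26 other libraries of the series. Only 322 genes had 1 to 3 counts in it, against 922 to 3197 in the 26 others. Of the genes tested, 489 had no count in it although each of the other 3 libraries had at least 3 counts. It also held RNA of vessel-wall and stress genes that the other 3 had little of. Rgs5, a pericyte gene, was at 10.5 and 3.46 CPM in Tbet ko, 251 CPM in IFNg ko F1 and 5.5 CPM in IFNg ko F2, where CPM are read counts divided by the scaled library total. Saa3, an acute-phase gene, was at 0.886 and 8 CPM in Tbet ko, 156 CPM in IFNg ko F1 and 0.71 CPM in IFNg ko F2. These genes were chosen after their values were seen. Results are therefore given below by library, and with this library left out where it matters.

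**Figure D1:**
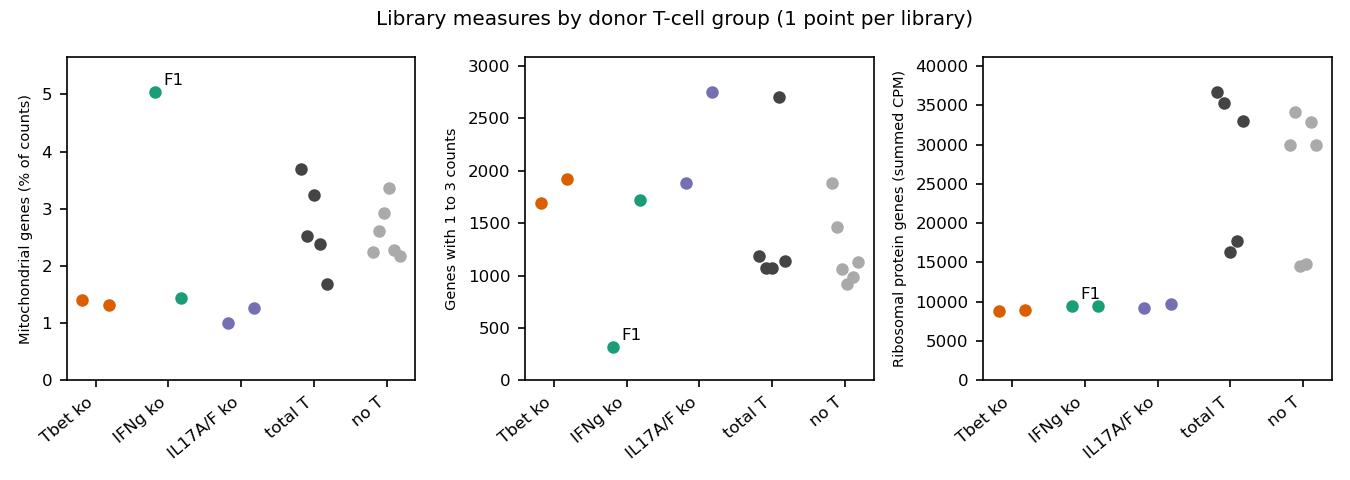
Mitochondrial share of counts, number of genes with 1 to 3 counts and summed CPM of ribosomal protein genes, with 1 point per library for 5 donor T-cell groups. IFNg ko F1 has the highest mitochondrial share (5.05%) and the fewest genes with 1 to 3 counts (322), and the Tbet, IFNg and IL17A/F ko libraries share a ribosomal protein level (8780 to 9644) below that of all total T and no T libraries (14540 to 36734).

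Macrophage markers were high in all 4 libraries, with a summed level over 10 markers, among them Csf1r, Adgre1 and C1qa, of 21360 and 22750 CPM in Tbet ko and of 19010 and 21230 CPM in IFNg ko. T-cell receptor genes were nearly absent, since Cd3e had no count in any of the 4 and Trac had 1 count in Tbet ko F2 and none in the other 3. Of 13 T-cell markers, 8 had no count in each Tbet ko library and 11 had none in each IFNg ko library. Tbx21 and Ifng had 0 counts in all 4 libraries, so the counts cannot check either knockout, which the macrophages do not carry. Fibroblast RNA was plain in both groups and somewhat lower in Tbet ko. The 10 marker genes, 9 of them tested, summed to 6946 and 6838 CPM in Tbet ko and to 7200 and 8655 CPM in IFNg ko. The sums were 544 to 641.6 CPM in total T and 881 to 2489 CPM in no T libraries. Both Tbet ko libraries lay below both IFNg ko libraries for 3 of the 9 (33.3%, against 14.4% of all genes tested). They lay above both for 1 (11.1%, against 18.5%). Dpt, one of these markers, was near or at 0 throughout.

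No gene passed the test between the groups. Of 12597 genes tested by edgeR's quasi-likelihood method, 0 (0%) reached an adjusted p under 0.05, and the smallest adjusted p was 0.147. That gene was Nmrk1, a nicotinamide riboside kinase, at 2.76 and 3.46 CPM in Tbet ko and 0 and 0.266 CPM in IFNg ko (named after its values were seen). Without adjustment, 265 genes (2.1%) had p under 0.05 with a higher level in Tbet ko and 176 (1.4%) with a lower one. Both Tbet ko libraries lay above both IFNg ko libraries for 2326 genes (18.5%) and below both for 1816 (14.4%), and these shares are the background for the counts below. Under the alternatives, DESeq2 and limma-voom also called 0 genes, with 485 and 216 at unadjusted p under 0.05. Without a filter on low counts edgeR called 66 genes, of the IFN-gamma response Gbp4, Cxcl9 and Serpina3g as higher and Nos2 as lower. Nos2, which encodes inducible nitric oxide synthase, was at 0.197 and 0.395 CPM in Tbet ko, 10.9 CPM in IFNg ko F1 and 0 CPM in IFNg ko F2. With IFNg ko F2 left out edgeR called 277 genes, of which 108 had no count in IFNg ko F1.

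How far a difference could hide depends on the level of the gene. Among 1807 genes with a mean above 100 CPM, the 95% interval of the log2 fold change lay within 1 unit of 0, that is within a 2-fold difference either way, for 1591 (88%). Among 6516 genes between 10 and 100 CPM it did so for 4510 (69.2%), and among 4259 genes under 10 CPM for 163 (3.83%). Over the whole table the Tbet ko libraries differed from IFNg ko F2 no more than from each other. Of 8323 genes with a mean of at least 10 CPM, 63 (0.757%) differed by over 2-fold between Tbet ko F1 and IFNg ko F2 and 46 (0.553%) between Tbet ko F2 and IFNg ko F2, against 75 (0.901%) between the Tbet ko libraries. With IFNg ko F1 the counts were 486 (5.84%) and 488 (5.86%), and 409 (4.91%) genes differed so between the IFNg ko libraries themselves.

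Antigen presentation genes and targets of IFN-gamma had the highest shares of members without overlap between the groups, with Tbet ko above IFNg ko by modest amounts and no member past the test. Of 34 genes on the IFN-gamma response list 30 were tested. Gbp5, Gbp6 and Gbp10 were not analysed here and Ido1 had no count in the 4 libraries. The median log2 fold change was 0.42, against 0.02 over all genes, 28 of 30 values were positive, and 0 members were called. Both Tbet ko libraries lay above both IFNg ko libraries for 19 members (63.3%, against 18.5% of all genes) and below both for 0.

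Among the guanylate-binding proteins, GTPases that attack vacuoles of intracellular microbes, Gbp4 stood at 13.8 and 9.48 CPM in Tbet ko and at 3.58 and 3.19 CPM in IFNg ko. Its log2 fold change was 1.78 ± 0.73 (SE), with a 95% interval of 0.27 to 3.3 and an edgeR adjusted p of 1. Gbp4 shares exons with Gbp8 and Gbp9, so reads may be split between them. Gbp2 was at 151 and 126 CPM in Tbet ko and 106 and 83 CPM in IFNg ko, without overlap, but its interval of -0.68 to 1.79 was wide. Gbp7 and Gbp9 overlapped between the groups, with log2 fold changes of 0.08 ± 0.27 and 0.04 ± 0.27. The family was thus uneven within itself. On GRCm38, by the GENCODE M21 annotation, Gbp4 lies at chr5:105115767-105139586, minus strand, ENSMUSG00000079363.

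Cxcl9, a chemokine that draws CXCR3-bearing T cells and that macrophages make on IFN-gamma, was at 34.2 and 66.5 CPM in Tbet ko and at 2.48 and 22.5 CPM in IFNg ko. The groups did not overlap, but the libraries of each differed widely, and the log2 fold change of 1.97 ± 1.09 had an interval of -0.29 to 4.23. It was 1.16 without IFNg ko F1 and 4.34 without IFNg ko F2. The gene lies at chr5:92321347-92328079, minus strand, ENSMUSG00000029417. Cxcl10, which binds the same receptor and also answers to type I interferon, was at 192 and 149 CPM in Tbet ko and 112 and 137 CPM in IFNg ko.

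Irf8, a transcription factor of the myeloid lineage, was at 317 and 339 CPM in Tbet ko and 225 and 265 CPM in IFNg ko, a log2 fold change of 0.42 ± 0.27 (interval -0.13 to 0.97). Irf1, an early target of the pathway, did not line up this way, at 804 and 518 CPM in Tbet ko and 623 and 556 CPM in IFNg ko. Nor did Socs1, the feedback inhibitor of the pathway, at 13.6 and 10.9 CPM in Tbet ko and 12.7 and 14.8 CPM in IFNg ko.

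Fcgr4, the receptor for IgG2 antibodies in the mouse, had the smallest p of the IFN-gamma response list. It was at 141 and 157 CPM in Tbet ko and at 78.4 and 89.8 CPM in IFNg ko, and its log2 fold change was 0.82 ± 0.3 (interval 0.21 to 1.44, edgeR adjusted p = 1). Leaving out each library in turn kept it between 0.73 and 0.92. The gene lies at chr1:171018920-171029761, plus strand, ENSMUSG00000059089. Cd274, which encodes the checkpoint ligand PD-L1, was at 48.8 and 65.5 CPM in Tbet ko and 46.2 and 42.6 CPM in IFNg ko, a separation smaller than the spread within Tbet ko. Nos2, inducible nitric oxide synthase, was seen mainly in IFNg ko F1, at 10.9 CPM, against 0.197 and 0.395 CPM in Tbet ko and 0 CPM in IFNg ko F2.

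Promoters were also read for motifs of the pathway. The IFN-gamma response list gathers targets of this cytokine, so an excess of its motifs there follows from how the list was made. Such an excess does not bear on the difference between the groups. Of the list, 21 genes matched RefSeq promoter windows, which run from 250 bases before to 50 bases after the gene start, in 24 windows. The GAS motif TTCNNNGAA was found on either strand in 10 of these windows (41.7%), against 8.3% of all 32851 windows. The interferon-stimulated response element (ISRE) was searched as GAAA, then any 2 bases, then GAAA, also on both strands, and found in 12 (50%), against 3.44% of all windows. In the MHC lists described next, which lay above in larger shares, the GAS motif was near that of all windows, in 2 of 21 (9.52%) for class I and 1 of 11 (9.09%) for class II. The ISRE was in 5 (23.8%) of the class I windows and 1 (9.09%) of the class II windows. The windows shown are those of the 4 genes with the highest log2 fold change among members of this list and the MHC lists that hold either motif, have at least 10 CPM in both Tbet ko libraries and do not overlap between groups. They are given 5′ to 3′ on the gene's strand from RefSeq on GRCm38, with motif matches in capitals.
Serpina3g (chr12:104235897-104236196, plus strand): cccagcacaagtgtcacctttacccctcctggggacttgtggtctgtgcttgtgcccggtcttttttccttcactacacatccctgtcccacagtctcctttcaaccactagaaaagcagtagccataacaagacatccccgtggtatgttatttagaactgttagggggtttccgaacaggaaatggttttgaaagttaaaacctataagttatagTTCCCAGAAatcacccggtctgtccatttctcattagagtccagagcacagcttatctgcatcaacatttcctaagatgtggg
Fcgr4 (chr1:171018676-171018975, plus strand): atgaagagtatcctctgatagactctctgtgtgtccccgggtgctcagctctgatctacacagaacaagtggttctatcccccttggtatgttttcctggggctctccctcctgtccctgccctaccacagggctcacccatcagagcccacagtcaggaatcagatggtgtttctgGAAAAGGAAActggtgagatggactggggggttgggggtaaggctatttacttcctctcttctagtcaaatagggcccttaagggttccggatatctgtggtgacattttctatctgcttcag
Igtp (chr11:58199306-58199605, plus strand): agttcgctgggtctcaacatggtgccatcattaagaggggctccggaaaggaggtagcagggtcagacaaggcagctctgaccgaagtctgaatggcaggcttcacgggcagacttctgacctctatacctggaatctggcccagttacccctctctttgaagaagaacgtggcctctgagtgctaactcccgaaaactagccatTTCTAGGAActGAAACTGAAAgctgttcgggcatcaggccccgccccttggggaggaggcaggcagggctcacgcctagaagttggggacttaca
Tgtp2 (chr11:49064163-49064462, minus strand): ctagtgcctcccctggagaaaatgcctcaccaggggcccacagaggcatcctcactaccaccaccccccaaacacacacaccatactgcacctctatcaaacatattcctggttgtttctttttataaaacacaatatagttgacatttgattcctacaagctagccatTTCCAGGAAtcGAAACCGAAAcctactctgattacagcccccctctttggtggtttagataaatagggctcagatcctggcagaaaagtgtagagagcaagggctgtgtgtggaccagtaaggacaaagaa
In Serpina3g, a serine protease inhibitor, the GAS match begins 33 bases before the gene start, and in Fcgr4 an ISRE match begins 73 bases before it. Igtp and Tgtp2, both immunity-related GTPases, hold a GAS match closely followed by an ISRE match, beginning 45 and 34 bases before the start of Igtp and 81 and 70 bases before that of Tgtp2. Serpina3g was at 37.5 and 31.3 CPM in Tbet ko and 16.1 and 16.1 CPM in IFNg ko (log2 fold change 1.1 ± 0.62). Igtp was at 93.9 and 66.4 CPM in Tbet ko and 42.1 and 56.5 CPM in IFNg ko (0.7 ± 0.39), and Tgtp2 at 29.9 and 29.2 CPM in Tbet ko and 23.3 and 14.3 CPM in IFNg ko (0.66 ± 0.38). Serpina3g and Tgtp2 have close family members that can share reads, so their counts are uncertain. The motif matches are a description of these windows and were not tested against binding.

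MHC class I genes, which present peptides to CD8 T cells, and the genes that cut and load those peptides had the highest share of members above among all lists. All 22 were tested and all 22 had a positive log2 fold change, from 0.07 to 0.76 with a median of 0.40, and 0 were called. Both Tbet ko libraries lay above both IFNg ko libraries for 20 (90.9%), the exceptions being the general chaperones Pdia3 and Calr. H2-K1, a classical class I heavy chain, was at 2384 and 2183 CPM in Tbet ko and at 1396 and 1712 CPM in IFNg ko. Its log2 fold change was 0.55 ± 0.23 (interval 0.07 to 1.04, edgeR adjusted p = 1). It lies at chr17:33996017-34000347, minus strand, ENSMUSG00000061232. H2-D1, the other classical heavy chain of B6 mice, was at 3175 and 2871 CPM in Tbet ko and 2020 and 2473 CPM in IFNg ko (0.43 ± 0.18). Class I heavy chains are close paralogs, so reads may be split among them.

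Tap1, a chain of the peptide transporter, lay at 217 and 187 CPM in Tbet ko and at 141 and 131 CPM in IFNg ko, a log2 fold change of 0.57 ± 0.32. It shares exonic sequence with Psmb9 on the opposite strand, which these unstranded reads cannot separate. Psmb8, an immunoproteasome subunit, was at 196 and 181 CPM in Tbet ko and 109 and 146 CPM in IFNg ko (0.56 ± 0.29). B2m, the shared light chain, was at 3214 and 3016 CPM in Tbet ko and 2573 and 2814 CPM in IFNg ko, with an interval of -0.21 to 0.63. Nlrc5, the transactivator of class I genes, was at 55.8 and 44.5 CPM in Tbet ko and 43.4 and 31.5 CPM in IFNg ko.

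MHC class II genes, which present peptides to CD4 T cells, followed with a median log2 fold change of 0.49 over 13 genes, 11 of them positive and 0 called. Both Tbet ko libraries lay above both IFNg ko libraries for 10 (76.9%) and below both for 1, Ifi30, a lysosomal thiol reductase. The classical chains H2-Aa, H2-Ab1 and H2-Eb1 stood together, with log2 fold changes of 0.52, 0.56 and 0.58. H2-Ab1 was at 8273 and 7898 CPM in Tbet ko and at 5041 and 5901 CPM in IFNg ko, a log2 fold change of 0.56 ± 0.35 with an interval of -0.15 to 1.28, and lies at chr17:34257689-34269419, plus strand, ENSMUSG00000073421. Cd74, the invariant chain, was at 18358 and 17737 CPM in Tbet ko and 13480 and 13737 CPM in IFNg ko (0.41 ± 0.3). Ciita, the transactivator, was at 183 and 133 CPM in Tbet ko and 119 and 107 CPM in IFNg ko (0.49 ± 0.41). The peptide-exchange factor H2-DMb2 was scarce, at 7.48 and 4.94 CPM in Tbet ko and 1.24 and 3.02 CPM in IFNg ko. Ciita and Nlrc5 also stand on the IFN-gamma response list, so the lists are not fully separate.

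**Figure D2:**
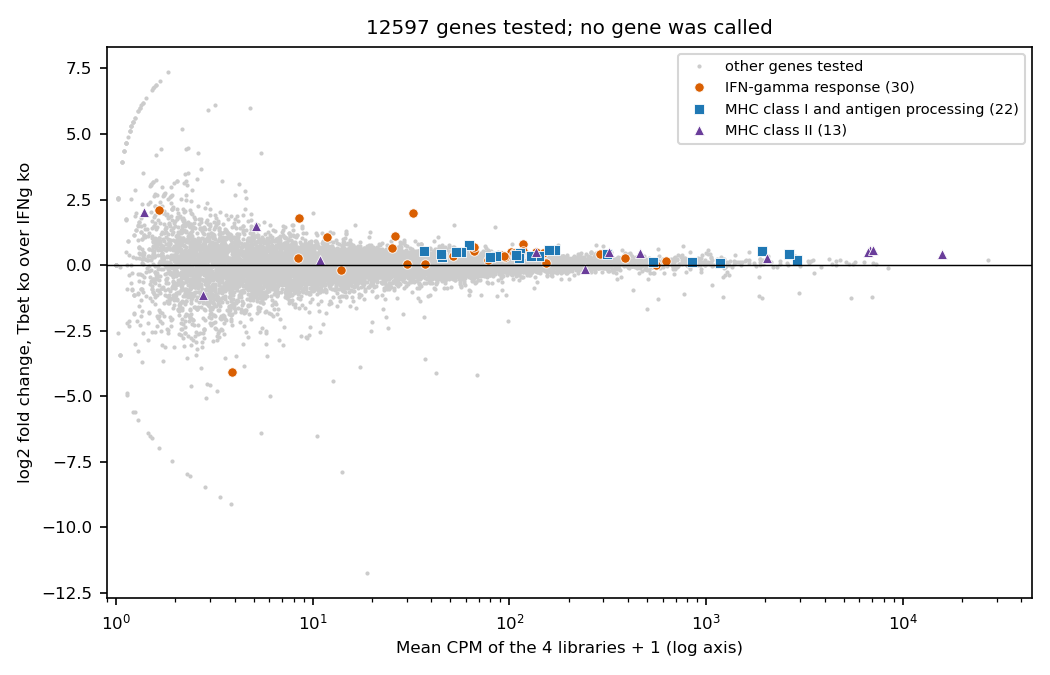
Log2 fold change of Tbet ko over IFNg ko against the mean level of the 4 libraries (log axis, CPM + 1) for 12597 genes tested. Members of the IFN-gamma response, MHC class I and MHC class II lists lie mostly above 0, at medians of 0.42, 0.40 and 0.49, inside the spread of other genes.

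The direction of these lists did not rest on IFNg ko F1. Without it, the median log2 fold change was 0.52 for the IFN-gamma response, 0.32 for MHC class I and 0.45 for MHC class II. Both Tbet ko libraries then lay above IFNg ko F2 for 28 of 30, 20 of 22 and 12 of 13 members, against 33.1% of all genes tested. The lone IFNg ko library is there assumed to vary like those of other groups. Leaving out Tbet ko F1 gave the lowest medians, 0.32 for the IFN-gamma response, 0.28 for MHC class I and 0.38 for MHC class II, and leaving out Tbet ko F2 the highest for all 3, 0.56, 0.49 and 0.56.

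The genes that carry the signal had values near 0. Over 15 genes of the receptor and its signalling, the median log2 fold change was 0.06, with 2 members above and 1 below without overlap. Ifngr1, the ligand-binding chain, was at 305 and 318 CPM in Tbet ko and at 275 and 317 CPM in IFNg ko, with an interval of -0.25 to 0.4. Ifngr2 was at 135 and 144 CPM in Tbet ko and 140 and 153 CPM in IFNg ko (interval -0.5 to 0.36). Jak1, a kinase bound to the receptor, was at 399 and 373 CPM in Tbet ko and 386 and 355 CPM in IFNg ko. These intervals lie within 1 unit of 0. Jak2, the other kinase, lay below without overlap, at 45.1 and 46.9 CPM in Tbet ko and 63.7 and 50.7 CPM in IFNg ko.

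The type I interferon response list, whose genes answer mainly to interferon-alpha and -beta, had a median close to that of all genes. Its 26 tested members had a median log2 fold change of 0.05, 13 positive values, 8 (30.8%) above and 3 below without overlap, and 0 calls. Without Tbet ko F2 the median was -0.03. Ifit1, an antiviral RNA-binding protein, was at 31.7 and 34.9 CPM in Tbet ko and 37.4 and 31 CPM in IFNg ko. Rsad2, which encodes viperin, was at 81.3 and 95.7 CPM in Tbet ko and 110 and 120 CPM in IFNg ko, below without overlap. Oas1g was above without overlap, at 12.3 and 12.2 CPM in Tbet ko and 5.64 and 7.9 CPM in IFNg ko.

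Both groups sat low on the scale set by the other libraries, with Tbet ko the nearer to the IL17A/F ko and total T libraries. On the IFN-gamma response list IFNg ko lay near the no T median. The mean log2(CPM + 1) over the IFN-gamma response list was 6.01 and 5.85 in Tbet ko, 5.55 and 5.41 in IFNg ko, 6.27 and 6.63 in IL17A/F ko, 6.34 to 8 (median 6.95) in total T and 5.44 to 6.03 (median 5.58) in no T libraries. Tbet ko lay below every total T library. Both Tbet ko libraries lay above 5 of the 6 no T libraries, which were at 5.44 to 5.61, and below the 6.03 of the other, which stood far from its group. For MHC class I the level was 7.81 and 7.69 in Tbet ko, 7.30 and 7.43 in IFNg ko, 8.01 and 8.27 in IL17A/F ko, 8.26 to 9.10 in total T and 7.68 to 7.98 in no T libraries. Both IFNg ko libraries lay below every no T library there. For MHC class II it was 8.13 and 8.03 in Tbet ko, 7.68 and 7.69 in IFNg ko, 8.32 and 8.76 in IL17A/F ko, 9.19 to 9.5 in total T and 8.22 to 8.70 in no T libraries. On that list the libraries of both groups, Tbet ko as well as IFNg ko, lay below every no T library.

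Cxcl9 and Fcgr4 are given as single genes of this kind. Cxcl9 had 79.3 and 345 CPM in IL17A/F ko, 124 to 2199 CPM (median 752) in total T and 17.2 to 142 CPM (median 29.2) in no T libraries, so that IFNg ko F1, at 2.48 CPM, was below all of them. Fcgr4 had 253 and 398 CPM in IL17A/F ko, 354 to 578 CPM in total T and 111 to 162 CPM in no T libraries, which bracket Tbet ko but lie above both IFNg ko libraries. Levels of total T and no T libraries come with more ribosomal protein RNA and less fibroblast RNA, as given above, so a distance from them cannot be told apart from the type of library. The IL17A/F ko libraries share the ribosomal protein level of both groups (9169 and 9644 CPM).

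**Figure D3:**
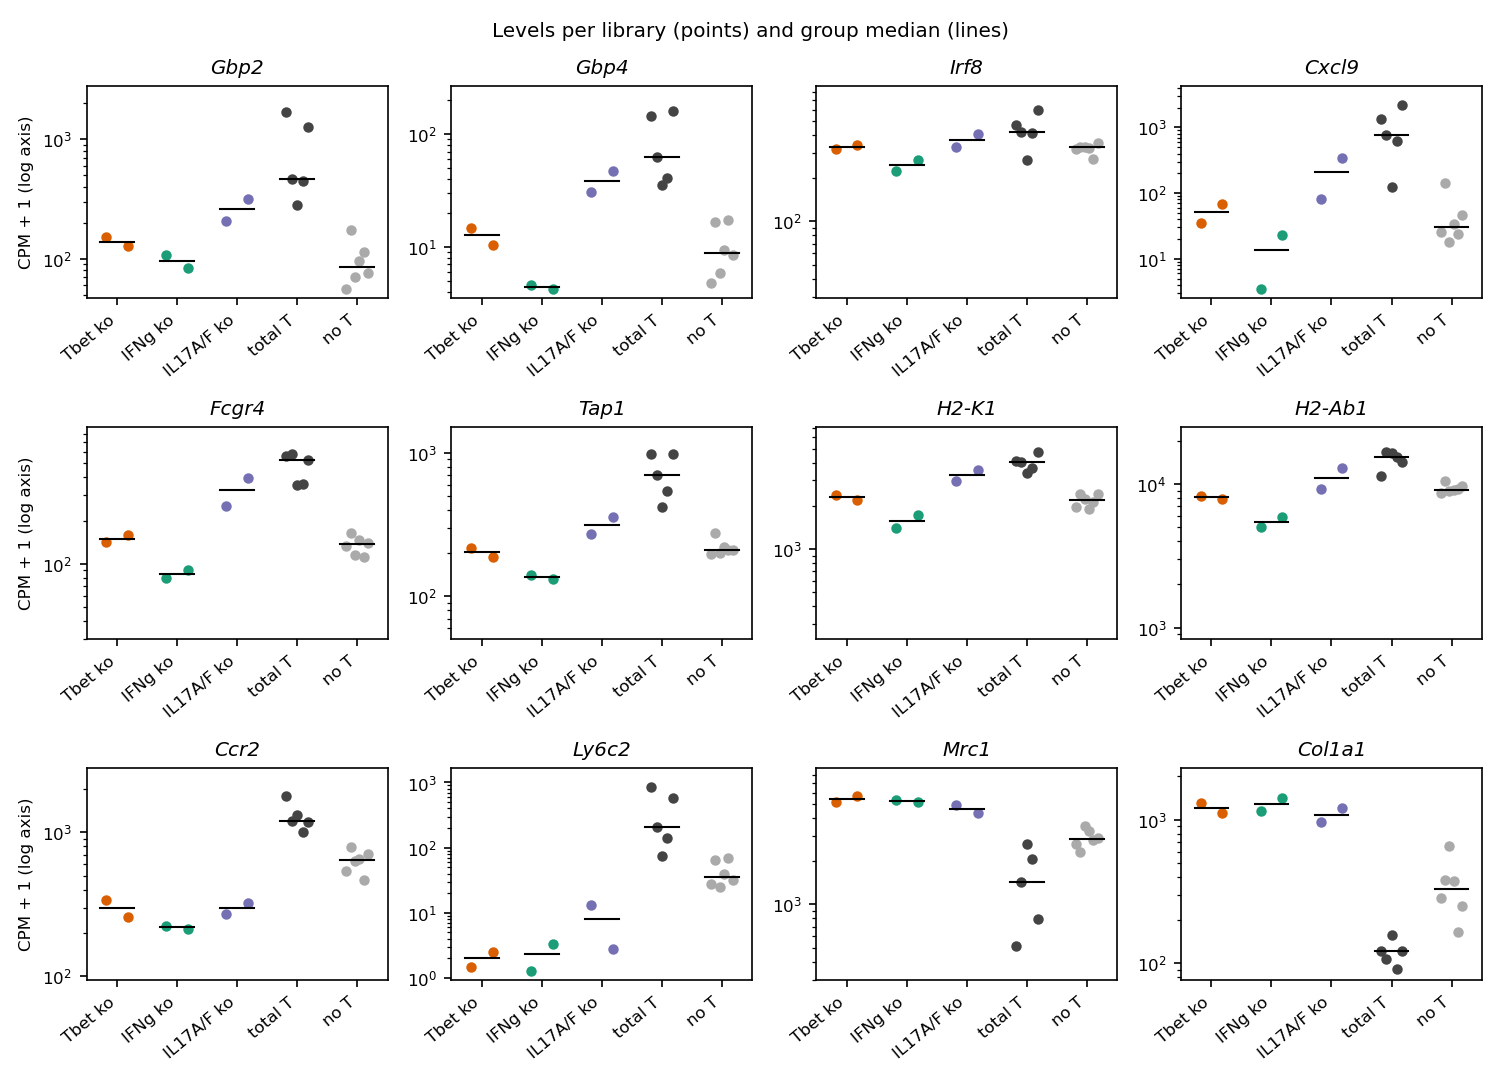
CPM + 1 per library (points, log axis) and group median (lines) of 12 genes in 5 donor T-cell groups. For Gbp4, Fcgr4, Tap1, H2-K1 and H2-Ab1 both Tbet ko points lie above both IFNg ko points and below both IL17A/F ko points, whereas Mrc1 and Col1a1 overlap between Tbet ko and IFNg ko.

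**Figure D4:**
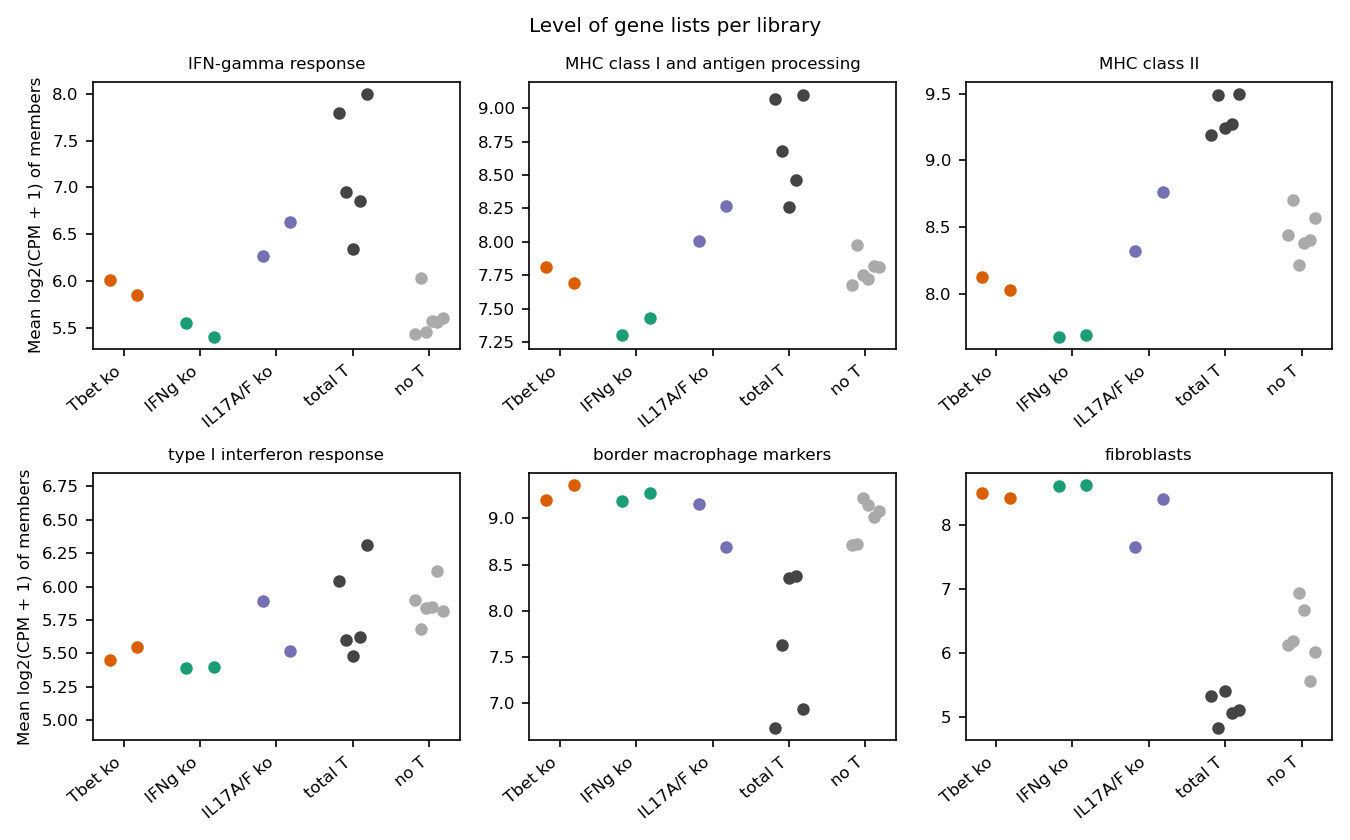
Mean log2(CPM + 1) of the tested members of 6 lists, with 1 point per library. IFN-gamma response, MHC class I and MHC class II levels are higher in both Tbet ko libraries than in both IFNg ko libraries, while border macrophage levels overlap (9.2 and 9.36 in Tbet ko, 9.19 and 9.27 in IFNg ko) and fibroblast levels are slightly lower in Tbet ko (8.51 and 8.43) than in IFNg ko (8.62 and 8.63).

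Markers of resident macrophages overlapped between the groups, with wide intervals for single genes. Border macrophage markers, 21 genes typical of long-lived cells of the brain's membranes, had a median log2 fold change of 0.03, with 4 (19%) above and 1 below without overlap. Without Tbet ko F2 it was -0.02. Mrc1, the mannose receptor, was at 5155 and 5639 CPM in Tbet ko and at 5350 and 5150 CPM in IFNg ko (interval -0.85 to 0.93). Cbr2, a carbonyl reductase of these cells, was at 927 and 926 CPM in Tbet ko and 914 and 934 CPM in IFNg ko (interval -0.92 to 0.92). Lyve1, the hyaluronan receptor, was at 100 and 218 CPM in Tbet ko and 148 and 129 CPM in IFNg ko. Fewer cells of a type and less RNA per cell cannot be told apart in bulk samples.

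Monocyte-derived cell markers, 18 genes, had a median of -0.10, with 4 (22.2%) above and 1 below. The median was 0.13 without either IFNg ko library and 0.21 without Tbet ko F1. Ly6c2, the defining marker of inflammatory monocytes, was close to 0 in both groups, at 0.492 and 1.48 CPM in Tbet ko and 0.275 and 2.31 CPM in IFNg ko, against 209 CPM at the median of total T libraries. Ccr2, the monocyte chemokine receptor, was at 338 and 256 CPM in Tbet ko and 222 and 213 CPM in IFNg ko. Ly6a, which encodes Sca-1 and is induced by interferons, stood at 149 and 93.6 CPM in Tbet ko and 52.4 and 36.9 CPM in IFNg ko (log2 fold change 1.45 ± 0.82, interval -0.25 to 3.14). It is not one of these markers and was chosen after its values were seen.

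Genes of the response to interleukin-4 and interleukin-13, cytokines of the opposing T helper 2 arm, mostly overlapped between the groups. The median over 27 tested members was -0.03 (0.06 without Tbet ko F1 and 0.08 without IFNg ko F1), with 2 above and 0 below without overlap. Retnla was at 34.1 and 15.8 CPM in Tbet ko and 69.5 and 5.68 CPM in IFNg ko, and Ccl24, an eosinophil chemokine, at 49.5 and 58.6 CPM in Tbet ko and 57.1 and 78.3 CPM in IFNg ko. Arg1, arginase 1, had no count in either Tbet ko library or in IFNg ko F2, and 71.2 CPM in IFNg ko F1. Ccl8, a monocyte chemokine, was above without overlap, at 1157 and 756 CPM in Tbet ko and 593 and 549 CPM in IFNg ko.

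Interleukin-17 and NF-kB targets had a median of 0.13 over 21 tested members, with 6 (28.6%) above and 1 below, and of -0.09 without Tbet ko F2. Il1b, the inflammasome cytokine, was at 801 and 1155 CPM in Tbet ko and at 581 and 786 CPM in IFNg ko (interval -0.59 to 1.63). Ptgs2, cyclooxygenase 2, was at 495 and 591 CPM in Tbet ko and 467 and 473 CPM in IFNg ko. Early-response genes that tissue digestion induces had a median of 0.20, with 9 of 25 (36%) above and 1 below, and their summed level was 38030 and 32990 CPM in Tbet ko and 32140 and 29700 CPM in IFNg ko. Their part in the results above was not tested.

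Several lists of macrophage function leaned the same way by smaller amounts, and none of their members was called. The general macrophage markers leaned by a like amount, with a median of 0.17, 8 of 10 positive, 5 (50%) above and 0 below. Complement genes had a median of 0.16 and 17 of 18 positive, with 10 (55.6%) above and 1 below. C4b, the complement component of the classical and lectin pathways, was at 2032 and 1840 CPM in Tbet ko and 1459 and 1266 CPM in IFNg ko. Fc receptors had a median of 0.18 and 7 of 7 positive, with 4 (57.1%) above and 0 below, Fcgr4 being on this list as well. Macrophage cytokines that act on T cells had a median of 0.15, with 9 of 19 (47.4%) above and 1 below. Il27, a cytokine subunit that restrains T-cell inflammation, was at 4.53 and 5.23 CPM in Tbet ko and at 1.93 and 0.799 CPM in IFNg ko (log2 fold change 1.87 ± 0.6, interval 0.63 to 3.1, edgeR adjusted p = 1). Il10 was at 135 and 148 CPM in Tbet ko and 103 and 101 CPM in IFNg ko. Lists near the background were cholesterol synthesis (4 of 20 above), iron handling (3 of 15), TGF-beta pathway (3 of 17), glycolysis (3 of 24) and the microglia signature (2 of 12).

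In the other direction, cell cycle genes had a median of -0.27 over 30 members, with 0 above and 5 (16.7%) below without overlap, close to the 14.4% background. This median rested on single libraries, at -0.62 without IFNg ko F1 and 0.42 without IFNg ko F2. Mcm7, a subunit of the replicative helicase, was at 12.7 and 19.1 CPM in Tbet ko and at 31.9 and 27.8 CPM in IFNg ko (log2 fold change -0.91 ± 0.27, interval -1.47 to -0.35, edgeR adjusted p = 1), but it overlaps Cops6, on the opposite strand, which has more counts. Ccna2, cyclin A2, was at 2.07 and 2.47 CPM in Tbet ko and 3.72 and 7.63 CPM in IFNg ko. The summed cell cycle level was 458.9 and 517.1 CPM in Tbet ko and 432.8 and 661.5 CPM in IFNg ko, which overlap.

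**Figure D5:**
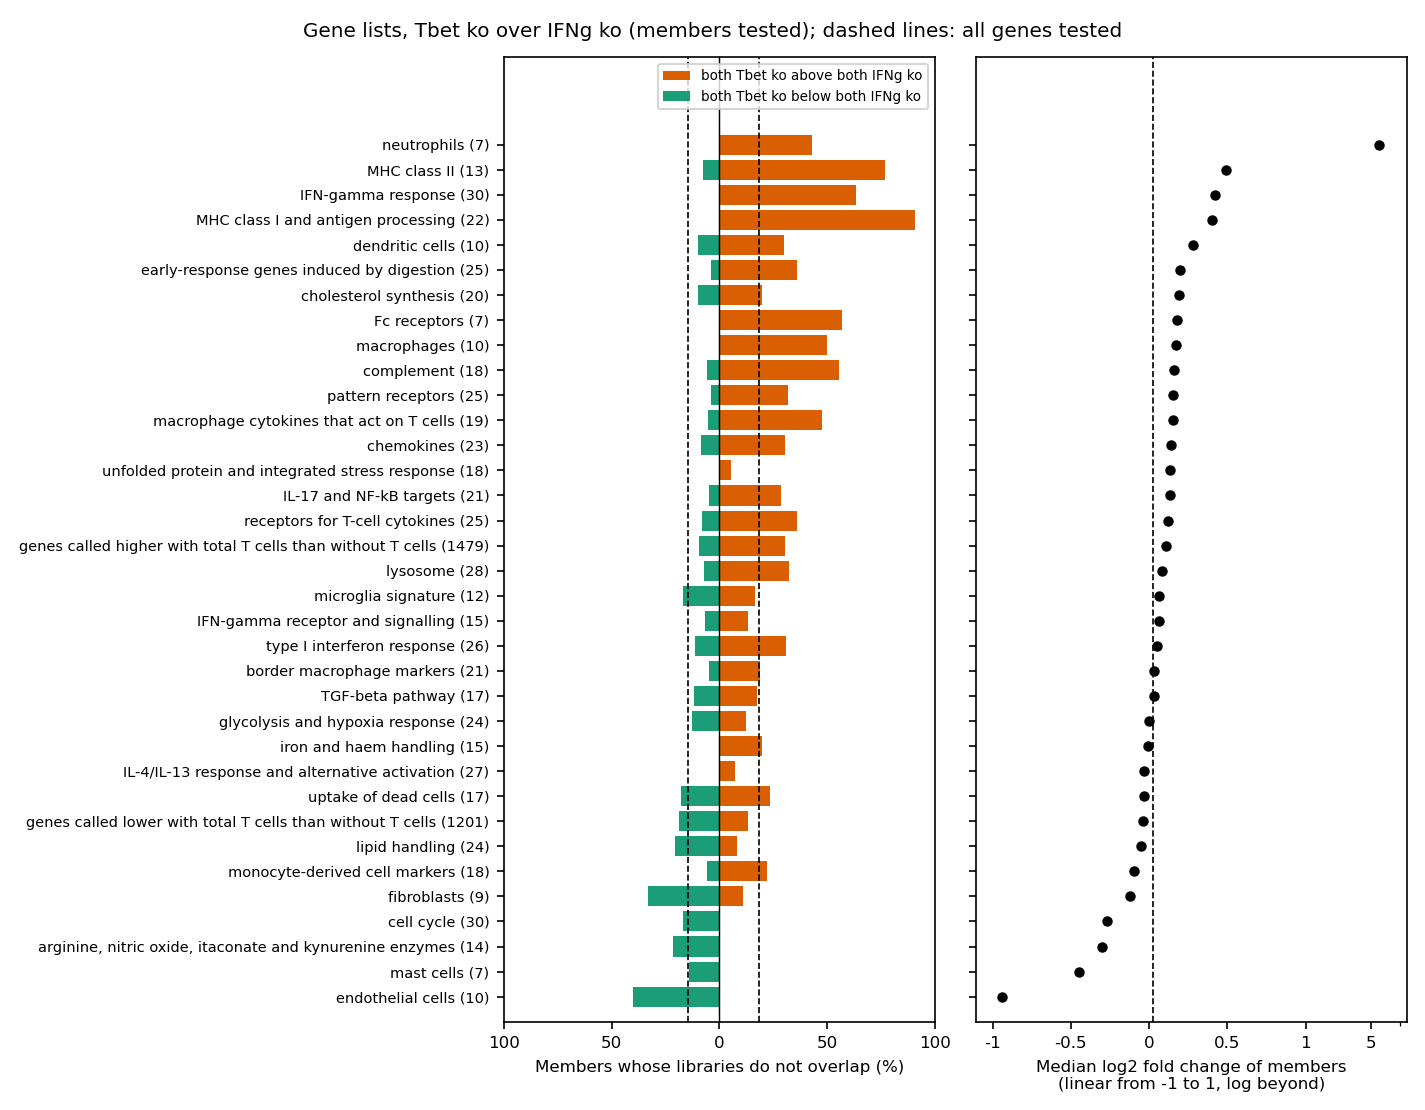
For each gene list (number of tested members in parentheses), the share of members with both Tbet ko libraries above (right) or below (left) both IFNg ko libraries, and the median log2 fold change. Dashed lines mark all genes tested (18.5% above, 14.4% below, median 0.02). MHC class I (90.9%), MHC class II (76.9%) and the IFN-gamma response (63.3%) have the highest shares above.

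Whether on a list or not, the genes with the smallest p and at least 10 CPM in both libraries of the higher group were then taken. They were mostly of general cell function, Mcm7 of the cell cycle list among them, and all had an adjusted p of 1. Mri1, an enzyme of methionine salvage, headed those above, at 11.3 and 11.9 CPM in Tbet ko and 2.2 and 5.86 CPM in IFNg ko (log2 fold change 1.49 ± 0.39). Its value was 0.98 without IFNg ko F1 and 2.39 without IFNg ko F2. Fbxl14, an F-box protein, was next, at 55.6 and 53.6 CPM in Tbet ko and 29.5 and 38.4 CPM in IFNg ko (0.68 ± 0.19). Also above were Ankib1, Pank2, Abcf3, Exosc5, Prrg2, Nifk, Nlk, Polg and Ndufv2, with log2 fold changes from 0.56 to 0.96. Without IFNg ko F1 they ran from 0.34 to 0.76, with Abcf3, Nifk, Polg and Ndufv2 the smallest, at 0.34 to 0.36. Prrg2 overlaps a gene on the opposite strand that has more counts than it does.

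Acaa2, a thiolase of mitochondrial fatty acid oxidation, headed those below, at 30.7 and 33.1 CPM in Tbet ko and 62.6 and 39.5 CPM in IFNg ko (log2 fold change -0.68 ± 0.2). It was -0.31 without IFNg ko F1 and -0.97 without IFNg ko F2, so its size rested on that library. Rnf19a, a ubiquitin ligase, had closely agreeing libraries, at 29.2 and 31 CPM in Tbet ko and 46.5 and 46.4 CPM in IFNg ko (-0.63 ± 0.19). Ptgds, prostaglandin D2 synthase and abundant in the meninges, was at 7.87 and 16 CPM in Tbet ko and 62.5 and 24.8 CPM in IFNg ko. The others below were Mcm7, Senp7, Ctdp1, Rprd1a, Ikzf5, Mturn, Rbm25, Kdm6a and Mettl23, with log2 fold changes from -1.44 to -0.60. Of these, Mettl23 overlaps the more abundant Srsf2 and Mfsd11. Without IFNg ko F1 they ran from -1.1 for Rprd1a to -0.33 for Kdm6a and -0.22 for Rbm25, so the size of some rested on that library.

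RNA of other cell types varied between the libraries within each group. Endothelial markers had a median of -0.94 over 10 genes, with 4 below and 0 above without overlap, and a summed level of 119.9 and 49.08 CPM in Tbet ko and 178.6 and 81.03 CPM in IFNg ko. Their median was 0.17 without IFNg ko F1 and -1.71 without IFNg ko F2. Pecam1, which marks endothelium, was at 8.17 and 5.73 CPM in Tbet ko, 56.8 CPM in IFNg ko F1 and 5.59 CPM in IFNg ko F2. Neutrophil markers summed to 38.09 and 2.568 CPM in Tbet ko and 0 and 20.59 CPM in IFNg ko, and mast cell markers to 267.8 and 30.12 CPM in Tbet ko and 304.3 and 121.8 CPM in IFNg ko. Dendritic cell markers, whose cells also carry MHC class II, summed to 358.4 and 442.6 CPM in Tbet ko and to 452.7 and 377.2 CPM in IFNg ko, which overlap. Their median log2 fold change was 0.28 over 10 tested members, 7 of them positive, with 3 (30%) above and 1 (10%) below without overlap. That median was 0.57 without IFNg ko F1 and 0.03 without Tbet ko F2. Flt3, a defining marker of dendritic cells, was at 0.295 and 0.691 CPM in Tbet ko and 3.58 and 0.444 CPM in IFNg ko. Ccr7, also on this list, leaned the other way, at 0 and 4.94 CPM in Tbet ko and 0 and 0.355 CPM in IFNg ko.

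Genes that followed T cells in the other libraries showed a weak lean. The comparison of total T with no T libraries, which uses none of the 4 libraries as a group, called 1479 genes higher with T cells (11.7% of genes tested) and 1201 lower (9.53%). Among the 1479, the median log2 fold change of Tbet ko over IFNg ko was 0.11, 451 (30.5%) lay above and 138 (9.33%) below without overlap. Among the 1201, the median was -0.04, with 162 (13.5%) above and 223 (18.6%) below. These gene groups were added after earlier results were known, and the fit shares its estimate of spread over all libraries.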

How the data were processed

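The deposited table holds read counts per gene for 27 libraries of dural macrophages. Its name calls the values normalized, but all values are whole and every count from 1 to 20 occurs in all 27 columns, so the deposited counts were treated as raw. The submitters' processing notes name the GRCm38 genome with STAR 2.4.0j, featureCounts and DESeq2 1.20.0 and do not say how reads with several matches were counted. Per the labels' protocols, reads were unstranded, single-end and 75 nucleotides long. Of 41388 identifiers 40254 had a symbol, and those without took 0.106% to 0.143% of counts. Columns were matched to groups by name and carry no replicate number.

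edgeR's quasi-likelihood test (edgeR 4.0.16, R 4.3.3, TMM) was fitted to all 27 libraries with group and sex as terms, on the 12597 genes whose normalized counts averaged 10 or more. P-values were adjusted by Benjamini-Hochberg over all genes tested, called at adjusted p under 0.05, and 95% intervals use the fit's standard error. CPM were computed from the counts and the TMM-scaled totals, and log2 levels add a pseudocount of 1 CPM. Library totals ran from 6902602 to 19966749 counts. The members and gene lists were chosen with earlier results of these data known. Genes named were a fixed panel, plus 12 per direction by smallest p, with at least 10 CPM in both libraries of the higher group and groups that do not overlap; genes outside this rule are list members, or are said to have been chosen after their values were seen. Results of 2 genes that this rule names are not reported here. DESeq2 1.42.0, limma 3.58.1, other filters, scalings, sample sets and left-out libraries were alternatives. The fit was tested on simulated data. The libraries of a pair differed by more than sampling noise, with a chi-square per degree of freedom of 11.7 for Tbet ko, 39.9 for IFNg ko and 18.3 for IL17A/F ko over genes with at least 20 counts.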

Additional observations from a re-analysis of the deposited data

Results flagged for a closer look

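Single libraries stood far from the rest of their group in 4 levels used for comparison, where chance flags about 1 in 20 groups. The levels of several genes and lists were checked in this way, so some flags would arise by chance alone. Among no T libraries, 1 had a mean log2 level of 6.03 on the IFN-gamma response list, 1 had 276 CPM of Tap1 and 1 had 3.91 CPM of Arg1, each the highest of 6. Among total T libraries, 1 had 4.48 CPM of Il27, the lowest of 5.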

How the results depend on the processing

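No gene was called by the main test or by 10 of the alternatives, run on the 4 or 6 libraries alone, on female libraries, with other size factors, with DESeq2, with limma-voom, with the minimum mean count raised to 50 or taken over the 4 libraries, without ribosomal and mitochondrial genes or with a ribosomal protein term, nor in the fits without either Tbet ko library or without IFNg ko F1. Without a filter on low counts 66 genes were called, 24 higher and 42 lower, and the groups overlapped for 33 of them. The prior degrees of freedom were infinite in that fit, against a median of 5.02 in the main one, so each gene's own spread had no weight; of the IFN-gamma response, Cxcl9, Gbp4 and Serpina3g were among those higher and Nos2 among those lower. Leaving out 1 library gave 0 to 277 called genes, the highest without IFNg ko F2, when IFNg ko F1 stood alone and 108 of the 277 had no count in it. Leaving out 1 library moved the median log2 fold change within 0.32 to 0.56 for the IFN-gamma response, 0.38 to 0.56 for MHC class II and 0.28 to 0.49 for MHC class I, and the other alternatives within 0.39 to 0.45, 0.45 to 0.52 and 0.37 to 0.43. None of these 3 medians changed sign under any alternative run. The alternative values of these medians, of the same lists' non-overlap counts and of the count of called genes were sorted by set limits. Of them, 98 were counted as unmoved and 7 as moved, namely both counts of called genes above 0 and 5 medians from fits without a Tbet ko library. A median moved if it shifted by at least the spread of that list's level between libraries of a group. A count of called genes moved if it was above 0. These limits are not errors of the values. No non-overlap count was among the moved, although that of the IFN-gamma response went from 19 to 28 of 30 without IFNg ko F1. Among values of single named genes and other lists, 1209 were counted as unmoved under the alternatives and 121 as moved. No paired analysis was possible because the columns carry no replicate numbers of the sample titles. With 2 libraries a group, differences under 2-fold in genes under 10 CPM were mostly not detectable at this depth.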

Other observations

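Further chemokines that draw monocytes were above without overlap and not called. Ccl7 was at 1193 and 1237 CPM in Tbet ko and 595 and 1056 CPM in IFNg ko, with an interval of the log2 fold change of -0.36 to 1.48. Ccl12 was at 404 and 485 CPM in Tbet ko and 276 and 321 CPM in IFNg ko (interval -0.35 to 1.5). Cxcl13, a B-cell chemokine, was below without overlap, at 19 and 27.9 CPM in Tbet ko and 28.6 and 56.2 CPM in IFNg ko. Over 23 chemokines the median log2 fold change was 0.14, with 7 above and 2 below, and was -0.09 without Tbet ko F2.

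Pattern receptors had a median of 0.15 with 8 of 25 above and 1 below, receptors for T-cell cytokines 0.12 with 9 of 25 above and 2 below, and lysosomal genes 0.08 with 9 of 28 above and 2 below. Lipid handling genes had a median of -0.05 with 2 of 24 above and 5 below. Enzymes of arginine, nitric oxide, itaconate and kynurenine metabolism had -0.30 with 0 of 14 above and 3 below, all 3 at low level (Arg2, Kynu and Upp1). Genes for the uptake of dead cells had -0.03 with 4 of 17 above and 3 below, and unfolded protein response genes 0.13 with 1 of 18 above and 0 below. The last 4 medians changed sign when 1 library was left out, to 0.03 without Tbet ko F1 and 0.05 without IFNg ko F2 for lipid handling and to 0.03 without IFNg ko F1 for the arginine group. For uptake of dead cells the median was 0.06 without IFNg ko F2, and for the unfolded protein response it was -0.03 without IFNg ko F1.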
